A study of Homo sapiens with 40 samples.

Results

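Guanylate-binding proteins (GBPs) and apolipoproteins L (APOLs) are immune effector genes, and 10 of them, *GBP1*, *GBP2*, *GBP3*, *GBP4*, *GBP5*, *APOL1*, *APOL2*, *APOL3*, *APOL4* and *APOL6*, are described here out of 44584 rows of the count table. They were chosen by name, with it already known from these data that several were higher in BT474R cells treated with EGF than in vehicle. The EGF values of the members in BT474R are therefore given as a description without a test, and tests are kept for the other comparisons. BT474 is a HER2-positive breast ductal carcinoma line that is sensitive to trastuzumab, an antibody against HER2. BT474R is a resistant derivative, 1 clone obtained by growing BT474 in trastuzumab for several weeks, so a difference between the lines is a difference between BT474 and that clone. All groups were serum starved. Cells were collected at T0, after starvation, or after 1 h, 12 h or 24 h with 50 ng/mL epidermal growth factor (EGF, a ligand of EGFR), 10 ng/mL heregulin (HRG, a ligand of HER3) or water (vehicle) in fresh starvation medium. Each of the 20 groups has 2 libraries of messenger RNA, 40 in all, with 16794594 to 33387936 counts per library.

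GBPs are large GTPases of the dynamin superfamily that interferons switch on in most cell types, interferon gamma above all. They assemble on bacteria and on the vacuoles that hold them, and several carry a lipid anchor at their C terminus that fixes them to membranes. On lipopolysaccharide of the bacterial surface the coat they form is a platform for CASP4, a caspase that starts inflammatory cell death. APOLs bind lipids and act on membranes: APOL1 is secreted, travels with high-density lipoprotein and kills trypanosomes, whereas the other members stay inside the cell, where APOL3 can break the membranes of cytosolic bacteria that GBPs have opened. Interferon receptors signal through JAK kinases, and IRF1 and IRF9 are among the transcription factors that act on the promoters of the response.

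The *GBP* genes lie together on chromosome 1 and the *APOL* genes on chromosome 22. Promoter sequences run from 250 bases before to 50 bases after the start of the gene. The set of RefSeq promoters used here (GRCh38.p14) held 3 of the 10 members, which does not mean that RefSeq lacks the others. All 3 are on the minus strand of chromosome 1: *GBP1* at chr1:89065159-89065458, *GBP3* at chr1:89022817-89023116 and *GBP4* at chr1:89198893-89199192. They are shown because these genes were higher together in EGF-BT474R and because interferon-responsive promoters have known motifs. Capitals mark matches to 3 motifs searched on both strands: GAAA, any 2 bases and GAAA (as in the interferon-stimulated response element), TTC, any 3 bases and GAA (as in the gamma-activated site), and GGG, any 2 bases and TTTCC (a kappaB-type site).
GBP1: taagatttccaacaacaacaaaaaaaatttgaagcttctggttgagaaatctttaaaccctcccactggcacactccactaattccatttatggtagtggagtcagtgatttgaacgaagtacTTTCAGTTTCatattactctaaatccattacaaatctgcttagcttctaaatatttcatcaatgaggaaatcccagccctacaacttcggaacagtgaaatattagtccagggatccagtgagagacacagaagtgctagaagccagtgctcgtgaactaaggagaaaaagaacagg
GBP3: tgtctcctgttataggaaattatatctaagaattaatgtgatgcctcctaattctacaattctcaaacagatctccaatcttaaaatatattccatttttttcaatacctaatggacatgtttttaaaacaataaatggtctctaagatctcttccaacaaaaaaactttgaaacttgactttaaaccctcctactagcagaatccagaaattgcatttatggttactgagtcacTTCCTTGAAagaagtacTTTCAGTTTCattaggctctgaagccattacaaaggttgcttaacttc
GBP4: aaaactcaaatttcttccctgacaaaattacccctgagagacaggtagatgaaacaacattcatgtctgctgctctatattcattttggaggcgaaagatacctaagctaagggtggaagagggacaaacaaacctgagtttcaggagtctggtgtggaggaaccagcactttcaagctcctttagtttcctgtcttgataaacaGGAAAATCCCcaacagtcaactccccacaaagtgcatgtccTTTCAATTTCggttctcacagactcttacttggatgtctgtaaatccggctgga
The interferon-stimulated response element type was matched in 3 of 3, on the reverse strand, between positions -127 and -118 of *GBP1*, 3 and 12 of *GBP3*, and -4 and 6 of *GBP4*, counted from the start of the gene with no position 0. Of 35116 RefSeq promoters of the same length, 3.57% held it. The strict gamma-activated pattern, TTC, any 3 bases and GAA, was matched in *GBP3* alone, between -15 and -7, and 7.66% of all promoters held it. Looser forms of that site were not searched, so these windows cannot show that *GBP1* or *GBP4* lacks one. The kappaB type was matched in *GBP4* alone, on the reverse strand between -45 and -36, and 1.91% of all promoters held it. No matches overlapped. *GBP1* and *GBP3* shared a stretch of 19 bases, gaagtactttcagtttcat, which holds the first motif and starts at -134 in *GBP1* and at -5 in *GBP3*, while *GBP4* shared at most 9 bases with either. Such matches describe letters in these windows and do not show that a factor was bound.

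In vehicle-treated BT474R, *GBP2*, *GBP3* and *APOL2* were detected well and the other members were near the limit of detection. After EGF, all 10 members were above vehicle in both libraries at 24 h, and 9 of 10 at 12 h (both EGF libraries above both vehicle libraries, which was so for 19.1% of the 35459 rows with any count at 12 h and for 19.1% at 24 h). Levels are CPM (each count as a share of its library's total, scaled by TMM), as mean ± SD of n = 2 libraries. A group with 3 counts or fewer over its 2 libraries was taken as at the floor, between 0.0529 and 0.0789 CPM. A fold against a group at 0 is given as a bound at that floor, and intervals of ratios are exact 95% binomial intervals that cover counting error only. In bulk libraries, more cells with a transcript and more transcript per cell cannot be told apart.

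**Figure D1:**
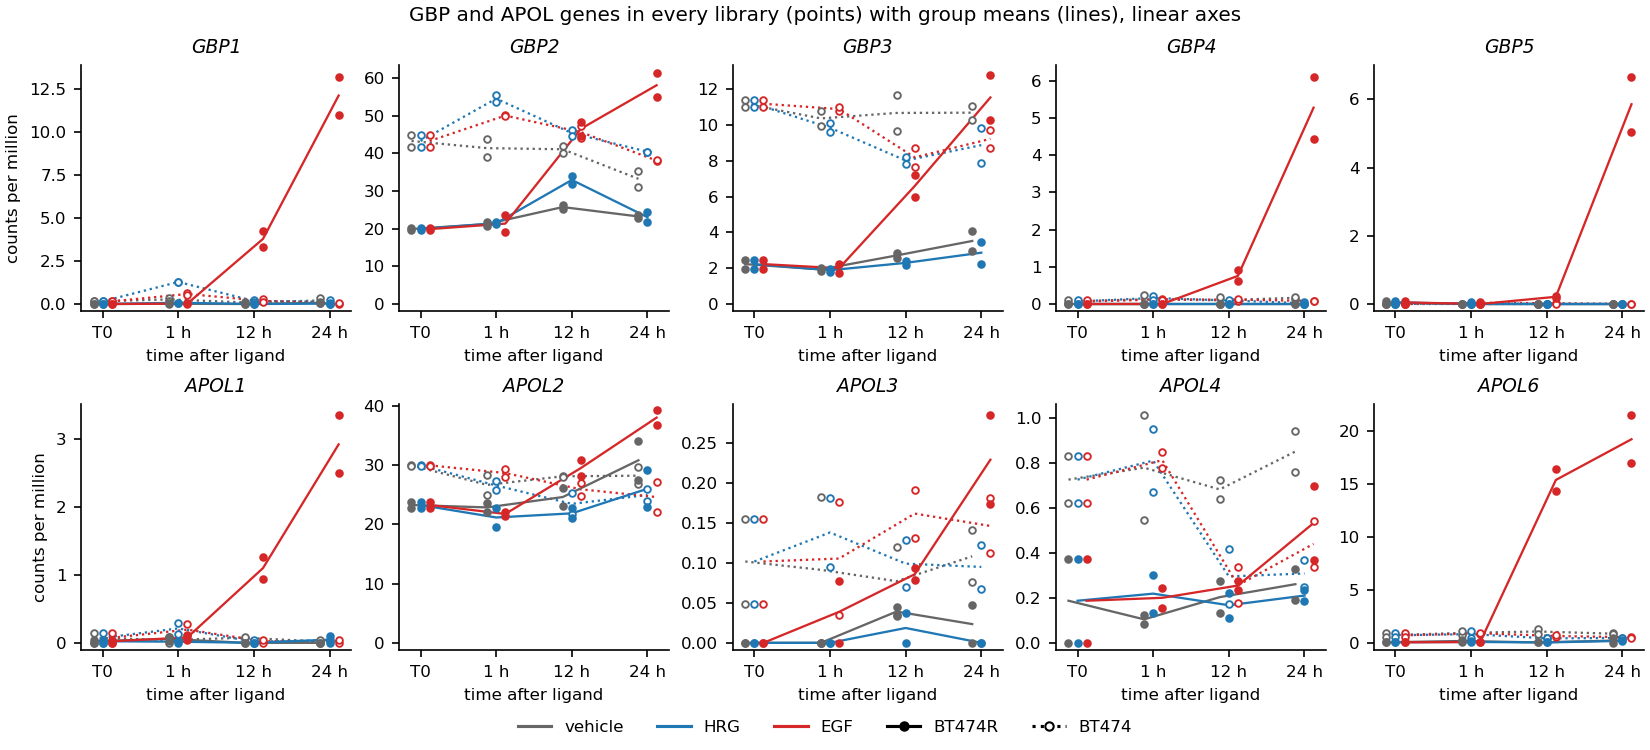
CPM of the 10 members (vertical, linear, a scale for each gene) at T0, after 1 h, 12 h or 24 h (horizontal, evenly spaced categories), with a point for each library and lines through the means of 2 libraries; filled points and solid lines are BT474R, open points and dotted lines are BT474. In EGF-BT474R, GBP1 reached 12.1 CPM and APOL6 19.3 CPM at 24 h, whereas GBP2 and GBP3 in EGF-BT474R reached or passed the levels of BT474 without a ligand.

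*GBP1*, which binds lipopolysaccharide and begins the coat on bacteria, had 0 and 0 counts in vehicle-treated BT474R at 12 h and 108 and 71 counts with EGF (4.24 and 3.32 CPM), at least 66.1-fold. At 24 h it had 1 and 2 counts in vehicle and 302 and 271 with EGF (13.2 and 11.0 CPM), a ratio of 190 (64.7 to 925). *GBP1* was at the floor in 7 of the 8 BT474R groups other than EGF at 12 h and 24 h, the exception being HRG at 1 h with 2 counts in each library. *GBP4* was not counted in those 8 groups, in any library. With EGF it had 23 and 13 counts at 12 h (0.903 and 0.608 CPM) and 140 and 109 at 24 h (6.11 and 4.44 CPM), at least 13.3-fold and at least 82.6-fold over vehicle. *GBP5*, which has been tied to inflammasome assembly, was at the floor in 18 of 20 groups, and outside EGF-BT474R it never exceeded 2 counts in a library. It had 6 and 4 counts at 12 h with EGF (0.236 and 0.187 CPM) and 153 and 124 at 24 h (6.67 and 5.05 CPM), at least 3.69-fold and at least 91.9-fold over vehicle. These 3 genes went from undetected or nearly so to several CPM, with no overlap between the EGF and vehicle libraries.

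*GBP2* and *GBP3* started from a level that was already measurable. *GBP2*, the most abundant GBP transcript here, had 26.3 and 25.2 CPM in vehicle at 12 h and 48.4 and 44.7 with EGF, a ratio of 1.82 (1.70 to 1.95). At 24 h it had 22.9 and 23.6 CPM in vehicle and 61.3 and 54.9 with EGF, a ratio of 2.50 (2.33 to 2.68). *GBP3* went from 2.57 and 2.86 CPM in vehicle to 7.22 and 5.98 with EGF at 12 h, a ratio of 2.43 (1.99 to 2.99). The difference was larger at 24 h, with 2.96 and 4.09 CPM in vehicle against 12.8 and 10.3 with EGF, a ratio of 3.32 (2.78 to 3.98). Summed over the 5 GBP genes, EGF-BT474R held 92.9 ± 10.1 CPM at 24 h against 26.8 ± 1.36 in vehicle. *GBP2* made up 86.6% of that sum in vehicle and 62.5% with EGF.

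Among the APOL genes, *APOL6* had the widest range. It had 1 and 1 counts in vehicle-treated BT474R at 12 h and 417 and 309 with EGF (16.4 and 14.4 CPM), a ratio of 402 (111 to 3320). At 24 h the vehicle libraries had 0 and 9 counts (0.0 and 0.423 CPM) and the EGF libraries 494 and 417 (21.5 and 17.0 CPM), a ratio of 101 (52.8 to 221). *APOL6* thus had most of its increase by 12 h. *APOL1* had no count in vehicle at 12 h or 24 h. With EGF it had 32 and 20 counts at 12 h (1.26 and 0.935 CPM) and 57 and 82 at 24 h (2.49 and 3.34 CPM), at least 19.2-fold and at least 46.1-fold. *APOL2* was the most abundant APOL transcript in every group and differed least, from 26.1 and 23.1 CPM in vehicle to 30.9 and 28.1 with EGF at 12 h, a ratio of 1.21 (1.12 to 1.31). At 24 h *APOL2* had 34.1 and 27.5 CPM in vehicle and 36.7 and 39.3 with EGF, a ratio of 1.22 (1.14 to 1.31).

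*APOL3* and *APOL4* stayed below 1 CPM in BT474R. *APOL3* had 0 and 1 counts in vehicle and 4 and 7 with EGF at 24 h, a ratio of 10.9 whose interval ran from 1.59 to 471, and 1 and 1 against 2 and 2 at 12 h. *APOL4* had 3 and 8 counts in vehicle and 7 and 5 with EGF at 12 h, so the groups overlapped. At 24 h *APOL4* had 5 and 7 in vehicle and 16 and 9 with EGF, a ratio of 2.07 (1.00 to 4.53). For these genes the depth sets the precision, and a difference of this size was at the edge of what the counts can show. Summed over the 5 APOL genes, vehicle held 31.3 ± 4.28 CPM at 24 h and EGF 60.9 ± 0.996, and the share of *APOL2* was 98.4% and 62.4%.

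Of the members, 7 of 10 passed the filter on low counts in BT474R, and *GBP4*, *GBP5* and *APOL3* did not. *GBP1* and *APOL1* had counts in 11 of 20 BT474R libraries, 4 of them those with EGF at 12 h and 24 h, and passed only through these. Of the 7, 5 were called higher with EGF at 12 h (6.85% of all genes tested) and 5 at 24 h (9.95%), which restates the choice of the genes: *GBP1*, *GBP2*, *GBP3*, *APOL1* and *APOL6* at both times. With no filter on low counts, 8 members were called at each time. At 1 h none of the 7 was called (0.416% of all genes were called higher and 0.0412% lower). At 1 h with EGF, *GBP1* had 0 and 1 counts, *APOL1* 3 and 1, *APOL6* 3 and 1, and *GBP2* 23.7 and 19.0 CPM, each overlapping its vehicle libraries. *APOL4* did not overlap, with 0.155 and 0.245 CPM against 0.0846 and 0.124 in vehicle, but its ratio of 1.86 had an interval of 0.611 to 6.21.

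The members differed in how far they had come by 12 h. In EGF-BT474R, *GBP2* at 12 h stood at 80.2% of its 24 h mean, *APOL6* at 80.0% and *APOL2* at 77.6%. *GBP3* stood at 57.1%, *APOL4* at 47.8%, *APOL1* at 37.6%, *APOL3* at 37.4% and *GBP1* at 31.2%. The latest were *GBP4*, at 14.3%, and *GBP5*, at 3.61%. Between 12 h and 24 h the mean of *GBP5* went up 27.3-fold (14.6 to 57.6) and that of *GBP4* 6.82-fold (4.80 to 9.97), whereas *APOL6* and *GBP2* were both 1.24-fold higher, with intervals of 1.12 to 1.37 and 1.17 to 1.31. For all 10 members both 24 h libraries lay above both 12 h libraries, which was so for 22.7% of the rows with any count. For *APOL3* and *APOL4* the intervals of the ratio, 0.804 to 11.7 and 0.995 to 4.49, included no change.

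**Figure D2:**
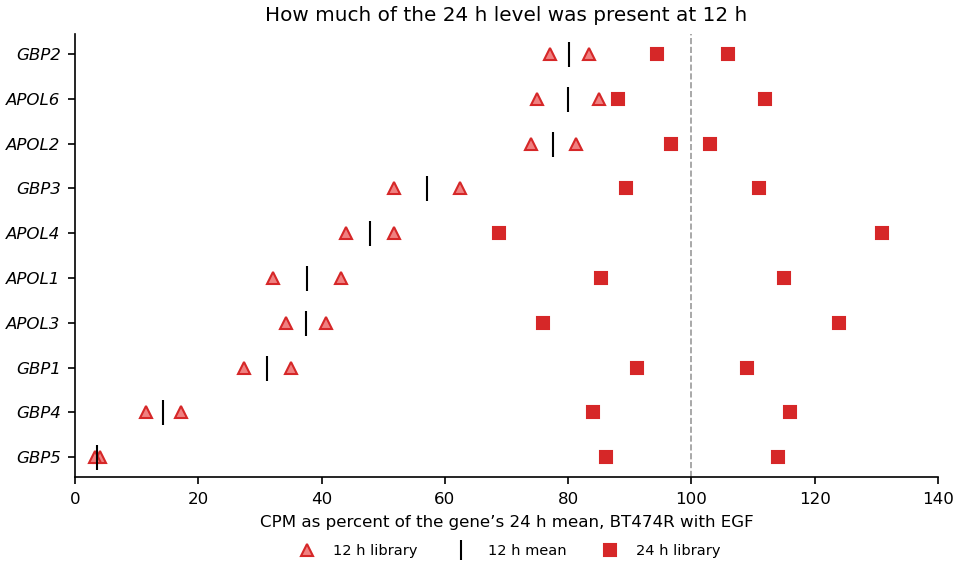
CPM of each member in EGF-BT474R as a percent of its own 24 h mean (horizontal), with triangles for the 2 libraries at 12 h, a vertical tick for their mean and squares for the 2 libraries at 24 h. The 12 h means run from 3.61% for GBP5 to 80.2% for GBP2, and no triangle reaches a square of the same gene.

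Compared per length, which allows genes to be set beside each other, the order of levels in EGF-BT474R at 24 h was *APOL2* (11.1 CPM per kb of exon), *GBP2* (8.04), *GBP3* (2.7), *GBP1* (1.98), *APOL6* (1.91), *GBP4* (0.858), *APOL1* (0.842), *GBP5* (0.535), *APOL4* (0.12) and *APOL3* (0.0389). In BT474 at T0, *APOL2* (8.76 CPM per kb), *GBP2* (5.99) and *GBP3* (2.61) led, and no other member exceeded 0.164. The same 3 genes therefore led the order in both groups.

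Set beside the other ligand, the members in BT474R kept near their vehicle levels with HRG, which shares its vehicle libraries with the EGF comparison. *GBP1* had 0 and 0 counts with HRG at 12 h and 0 and 1 at 24 h, *APOL1* 0 and 0 and then 0 and 2, *APOL6* 1 and 1 and then 3 and 5, and *GBP4* and *GBP5* none. Only *GBP2* was called: it went from 26.3 and 25.2 CPM in vehicle to 34.1 and 31.8 with HRG at 12 h (log2 fold change 0.34 ± 0.09 SE, adjusted p = 0.034), 1 of 7 members, of which *GBP1* and *APOL1* had no count in either group, beside 2.38% of all genes called higher. That call was lost when any 1 of the 4 libraries was left out (adjusted p = 0.244 and 0.064 without HRG replicate 1 and 2, 0.103 and 0.156 without vehicle replicate 1 and 2) and in a fit of those 4 libraries alone (0.0557). At 24 h *GBP2* had 21.7 and 24.4 CPM with HRG, which overlapped the vehicle libraries. At 1 h and 24 h edgeR called 0 of 7 members, and so did DESeq2, while the background was 0.169% higher and 0.0% lower at 1 h, and 1.89% higher and 0.889% lower at 24 h. At an unadjusted p under 0.05, 0 members passed at 1 h and 1 at 24 h, *APOL2* (log2 fold change -0.23 ± 0.11, adjusted p = 0.325).

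EGF and HRG in BT474R were also set side by side, again as a description. At 24 h the ratio of EGF to HRG was 2.51 (2.34 to 2.71) for *GBP2*, 4.01 (3.29 to 4.91) for *GBP3*, 1.46 (1.36 to 1.58) for *APOL2* and 103 (51.9 to 238) for *APOL6*. *GBP4* and *GBP5* were at least 74.8-fold and at least 83.2-fold higher with EGF. Of 7 members, 6 were called higher with EGF at 12 h (1.14% of all genes) and 6 at 24 h (3.32%), with *APOL4* left out both times. With only the libraries of these groups in the fit, no gene was called at 24 h, members included.

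In BT474 the same dose of EGF gave none of the large differences seen in BT474R, and the smaller ones that were called are described further on. At 24 h with EGF, *GBP1* had 0 and 1 counts, *GBP4* 2 and 2, *GBP5* 0 and 0, *APOL1* 0 and 1, and *APOL6* 15 and 11 (0.559 and 0.498 CPM). Set against these, EGF-BT474R at 24 h held 64.1 times as much *GBP4* (24.7 to 237), 36.1 times as much *APOL6* (24.5 to 55.5) and at least 95.1-fold more *GBP5*. The gap was narrow for the genes that BT474 expresses well: 1.52-fold (1.44 to 1.62) for *GBP2*, 1.53-fold (1.42 to 1.65) for *APOL2* and 1.24-fold (1.09 to 1.41) for *GBP3*. At 12 h *GBP2* did not separate the lines (46.6 ± 2.61 CPM in EGF-BT474R and 45.7 ± 2.32 in EGF-BT474, ratio 1.02, 0.961 to 1.09), and *GBP3* was lower in EGF-BT474R (ratio 0.814, 0.697 to 0.951). As an effect over its own vehicle, EGF was called different between the lines for 5 of 9 members at 12 h (0.929% of all genes in this direction) and 6 of 9 at 24 h (1.92%), all larger in BT474R. This comparison holds the EGF-BT474R libraries known when the genes were chosen, so the counts restate that choice and are no test. Over both lines *GBP4* passed the filter only through EGF-BT474R.

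**Figure D3:**
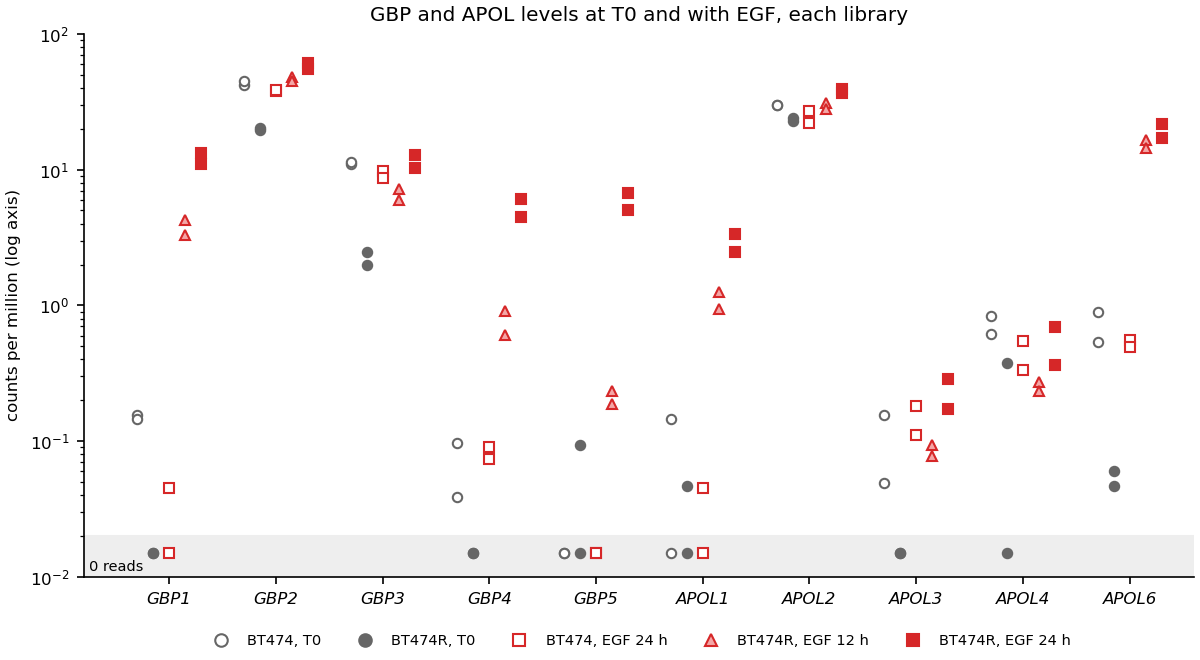
CPM of each member (vertical, log axis, with libraries without a read drawn in the grey band at the bottom) at T0 in both lines, with EGF at 24 h in BT474, and with EGF at 12 h and 24 h in BT474R, a symbol for each library. GBP4 and GBP5 in BT474R lie in or near the grey band at T0 and between 4.44 and 6.67 CPM with EGF at 24 h, whereas GBP2 and GBP3 start lower in BT474R than in BT474.

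Over all 40 libraries, both EGF-BT474R libraries at 24 h were above the 38 others for 6 of 10 members, *GBP1*, *GBP4*, *GBP5*, *APOL1*, *APOL2* and *APOL6* (2.91% of rows with any count). Both libraries at 12 h were above the 36 libraries of the other 18 groups for 5 members, the same less *APOL2* (2.28% of rows). The exceptions at 24 h were *GBP2*, *GBP3*, *APOL3* and *APOL4*. The lower *GBP2* library (54.9 CPM) was just under BT474 with HRG at 1 h (55.5), and the lower *GBP3* library (10.3) under BT474 vehicle at 12 h (11.7). The lower *APOL3* library (0.174 CPM) was under BT474 with EGF at 12 h (0.192), each with 4 counts. *APOL4* was the member whose highest group was not EGF-BT474R, since BT474 vehicle at 24 h had 0.85 ± 0.129 CPM against 0.532 ± 0.235. For *GBP1* the order was EGF-BT474R at 24 h, EGF-BT474R at 12 h, HRG-BT474 at 1 h (1.28 ± 0.0174 CPM), EGF-BT474 at 1 h (0.582 ± 0.0745) and BT474 vehicle at 1 h (0.267 ± 0.14), and the first 4 of these each lay above both libraries of the next. Further down the *GBP1* order, and for most neighbouring pairs of every member, libraries overlapped: of 19 neighbouring pairs, 5 did not overlap for *GBP1* and *APOL6*, 7 for *GBP2*, 3 for *GBP3*, 2 for *GBP4*, *GBP5* and *APOL1*, 1 for *APOL2*, and 0 for *APOL3* and *APOL4*.

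Before any ligand, several members were lower in BT474R than in BT474. At T0, 6 of 9 members tested were called lower in BT474R (21.7% of all genes were) and none higher. At an unadjusted p under 0.05, 6723 of the 24641 genes tested were higher and 6024 lower. Of the 6 calls, 2, *GBP1* and *APOL4*, rested on single libraries. The median log2 fold change of the 9 was -2.31, the value of *GBP3*, beside 0.0 over all genes. That median leans on rare genes: the lowest values, of *GBP1*, *APOL3* and *GBP4*, came from members without a count in BT474R at T0. *GBP4* entered this fit only through EGF-BT474R. *GBP3* had 11.0 and 11.4 CPM in BT474 and 1.98 and 2.48 in BT474R (log2 fold change -2.31 ± 0.18, adjusted p = 1.29e-13). *GBP2* had 41.8 and 44.8 CPM in BT474 and 19.6 and 20.2 in BT474R (-1.12 ± 0.08, adjusted p = 6.61e-14). *APOL2* had 30.0 and 29.9 CPM against 22.7 and 23.8 (-0.36 ± 0.11, adjusted p = 0.00537). In these 3 genes every BT474R library was below every BT474 library, and *GBP3* was furthest apart. *APOL6* had 23 and 11 counts in BT474 and 1 and 1 in BT474R, a ratio of 0.0716 (0.00834 to 0.279; adjusted p = 0.000341).

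At T0 the remaining members were rare in both lines. *GBP1* had 4 and 3 counts in BT474 and none in BT474R, at most 0.522 times as much, and was called (adjusted p = 0.0344), but not when any 1 of the 4 libraries was left out (adjusted p between 0.0587, without BT474 T0 replicate 2, and 0.149, without BT474R T0 replicate 2). *APOL4* had 16 and 17 counts in BT474 and 0 and 8 in BT474R (-1.75 ± 0.59, adjusted p = 0.014), a call lost without BT474R T0 replicate 1 (-0.96, adjusted p = 0.198) or BT474 T0 replicate 2 (-1.57, adjusted p = 0.0736). *APOL3* had 4 and 1 counts against 0 and 0, *GBP4* 1 and 2 against 0 and 0, *APOL1* 0 and 3 against 0 and 1, and *GBP5* 0 and 0 against 0 and 2, and none of the first 3 was called while *GBP5* did not pass the filter. With EGF at 24 h, BT474R stood level with vehicle-treated BT474 for *GBP3* (ratio 1.08, 0.956 to 1.22, with overlapping libraries) and above it for *GBP2* (1.75, 1.65 to 1.87).

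For the time in starvation medium the counts of members called were near the shares over all genes, so they describe single genes only. At an unadjusted p under 0.05, 1 of 9 members passed in BT474 and 3 of 7 in BT474R. The 3 were higher at 24 h: *APOL2*, *GBP3* (log2 fold change 0.64 ± 0.24, adjusted p = 0.0785) and *GBP2* (0.23 ± 0.1, adjusted p = 0.139). From T0 to vehicle at 24 h, 1 of 9 members was called in BT474, *GBP2*, which fell from 41.8 and 44.8 CPM to 35.3 and 31.2 (log2 fold change -0.38 ± 0.07, adjusted p = 5.54e-05; 6.23% of all genes fell). In BT474R 1 of 7 was called, *APOL2*, from 22.7 and 23.8 CPM to 34.1 and 27.5 (0.42 ± 0.11, adjusted p = 0.0146; 6.83% of all genes rose). That call was lost without BT474R T0 replicate 1 (adjusted p = 0.123), T0 replicate 2 (0.0644) or vehicle 24 h replicate 1 (0.276).

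BT474 showed an early response of its own, which the choice of the genes did not use. After 1 h of HRG, 2 of 9 members were called higher, *GBP1* and *GBP2* (2.16% of all genes), and after 1 h of EGF 1 of 9, *GBP2* (1.65%). *GBP1* went from 8 and 4 counts in vehicle to 28 and 27 with HRG (1.27 and 1.29 CPM; log2 fold change 2.25 ± 0.52, adjusted p = 0.00649). The call was lost without HRG replicate 1 (adjusted p = 0.05) or vehicle replicate 2 (1.79, adjusted p = 0.202), and DESeq2 gave this gene no adjusted p there. With EGF *GBP1* had 18 and 15 counts (1.11 ± 0.57, adjusted p = 0.51). *GBP2* had 43.7 and 39.1 CPM in vehicle, 55.5 and 53.6 with HRG (0.39 ± 0.06, adjusted p = 4.07e-05) and 50.2 and 49.9 with EGF (0.25 ± 0.06, adjusted p = 0.015). Both ligands thus put *GBP2* above both vehicle libraries. The EGF call was lost in a fit of the 4 libraries alone (adjusted p = 0.241) and without EGF replicate 1 (0.0791), EGF replicate 2 (0.105) or vehicle replicate 2 (0.412).

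At 12 h the calls in BT474 were downward. With HRG 4 of 9 members fell (12.5% of all genes did), *APOL2*, *APOL4*, *APOL6* and *GBP3*, and with EGF 2 of 9 (6.99%), *APOL4* and *GBP3*. *GBP3* went from 11.7 and 9.67 CPM in vehicle to 8.2 and 7.85 with HRG (-0.45 ± 0.11, adjusted p = 0.00218) and to 7.66 and 8.74 with EGF (-0.40 ± 0.12, adjusted p = 0.012). *APOL6* went from 39 and 20 counts in vehicle to 10 and 12 with HRG (-1.38 ± 0.38, adjusted p = 0.00515). For both genes every library with a named ligand lay below both vehicle libraries. *APOL4* went from 21 and 16 counts to 4 and 12 with HRG (-1.17 ± 0.45, adjusted p = 0.0485) and 4 and 7 with EGF (-1.43 ± 0.49, adjusted p = 0.0389). *APOL2* went from 28.2 and 28.0 CPM to 25.2 and 21.7 with HRG (-0.30 ± 0.08, adjusted p = 0.00513). Each of the 6 calls was lost when 1 library was left out. Without vehicle replicate 1, which was the higher vehicle library in *GBP3*, *APOL4* and *APOL6*, the adjusted p was 0.122 and 0.278 for *GBP3* with HRG and EGF, 0.191 for *APOL6*, and 0.196 and 0.174 for *APOL4*. *APOL2* was lost without HRG replicate 2 (0.221), *APOL6* also without HRG replicate 2 (0.0571), and *GBP3* with EGF also without EGF replicate 1 (0.227). *APOL4* was lost as well without vehicle replicate 2 (0.0959 with HRG and 0.0857 with EGF), HRG replicate 1 (0.35), EGF replicate 1 (0.338) or EGF replicate 2 (0.0603). In 1 fit of both lines the EGF calls of *GBP3* (0.0559) and *APOL4* (0.0801) and the HRG calls of *APOL2* (0.0589) and *APOL4* (0.0949) were lost, as was that of *APOL4* with HRG in DESeq2 (0.134), which gave *APOL4* no adjusted p with EGF.

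At 24 h, the counts of members called in BT474 were near the shares over all genes with either ligand, so they describe single genes only. HRG left *GBP2* higher and *APOL4* lower, 1 of 9 in each direction (12.5% of all genes rose and 11.6% fell). *GBP2* went from 35.3 and 31.2 CPM to 40.4 and 40.5 (0.26 ± 0.07, adjusted p = 0.00206), and *APOL4* from 20 and 20 counts to 11 and 6 (-1.43 ± 0.43, adjusted p = 0.0116). With EGF *GBP2* had 37.9 and 38.3 CPM (0.19 ± 0.07, adjusted p = 0.0435), 1 of 9 members called (9.71%). Without vehicle replicate 2, the lower *GBP2* library, the adjusted p for *GBP2* was 0.128 with HRG and 0.571 with EGF. The EGF call was also lost without EGF replicate 1 (0.0748) or EGF replicate 2 (0.138), and that of *APOL4* without HRG replicate 2 (0.0909) or vehicle replicate 1 (0.0806). The *GBP2* call with EGF was also lost in 1 fit of both lines (0.0927) and in a fit of its 4 libraries (0.155), and DESeq2 called neither *GBP2* with EGF (0.0764) nor *APOL4* with HRG (0.0508).

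**Figure D4:**
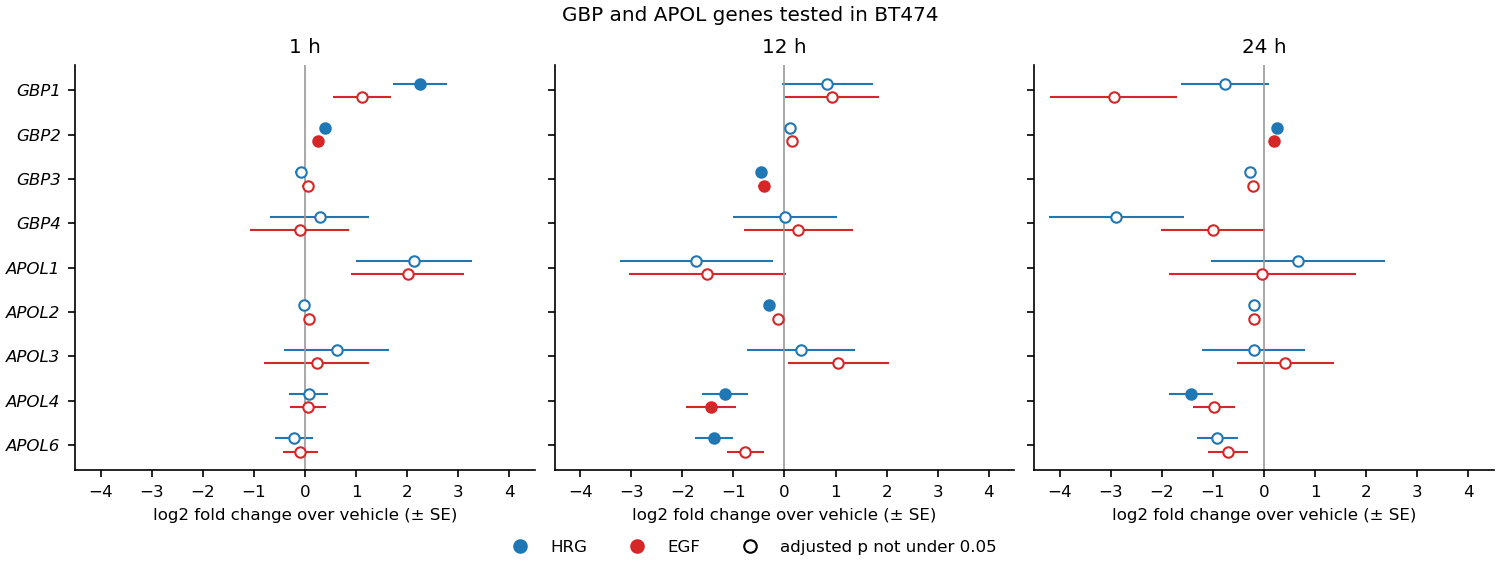
Log2 fold change over vehicle (horizontal, ± SE) of the 9 members tested in BT474, in a panel for 1 h, for 12 h and for 24 h, with HRG in blue and EGF in red; filled points have an adjusted p under 0.05. GBP1 with HRG at 1 h (2.25) is the only filled point above 1, and GBP2 is filled on the right at 1 h and 24 h with both ligands.

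The ligands were also compared directly in BT474. At 12 h and at 24 h edgeR called 0 of 9 members between HRG and EGF, as did DESeq2, and 0 had an unadjusted p under 0.05 (1.22% of all genes were higher with HRG and 0.95% lower at 12 h, and 0.207% and 0.561% at 24 h). The effect of HRG could be compared between the lines for 6 of the 9 members at 12 h and 8 at 24 h, since *GBP1*, *APOL1* and *GBP4* had no counts in the BT474R libraries concerned at 12 h, nor *GBP4* at 24 h. It was called different for 0 at 12 h (1.16% of all genes had a higher and 2.91% a lower effect in BT474R) and for 0 at 24 h (1.24% and 2.09%), in edgeR and in DESeq2. At an unadjusted p under 0.05, 0 members passed at 12 h and 1 at 24 h, *GBP2*, whose HRG effect was 0.30 lower on the log2 scale in BT474R (-0.30 ± 0.12, adjusted p = 0.188). At 12 h the difference for *GBP2* was 0.22 ± 0.11 (adjusted p = 0.345).

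Other genes of the pathway were counted in lists. These lists, too, were chosen with earlier results of these data known. Calls and adjusted p-values of listed genes that involve EGF-BT474R therefore describe these libraries and are no independent support. Of 13 transcription factors of the interferon response, EGF in BT474R raised 1 by 1 h, 5 by 12 h and 6 by 24 h, and it lowered 0, 0 and 2 (*NFKB1* and *IRF8*). Of all genes tested there, 0.416%, 6.85% and 9.95% were called higher, and 0.0412%, 5.13% and 7.37% lower, and the counts of the lists that follow are to be read beside these shares. The fall of *NFKB1* was lost without EGF replicate 2 (adjusted p = 0.0774), and that of *IRF8* without EGF replicate 1 (0.0762), EGF replicate 2 (0.0746) or vehicle replicate 2 (0.0915). *STAT2*, among the 6 raised at 24 h, was lost without EGF replicate 2 (0.155) or vehicle replicate 2 (0.323). The 1 raised at 1 h was *IRF1*, with 13.4 CPM against 2.86 in vehicle (log2 fold change 2.18 ± 0.22), at a time when no member was called. *IRF1* stayed up at 12 h, 16.9 against 1.89 CPM, and at 24 h, 14.9 against 1.97. *IRF9*, the DNA-binding part of the complex that type I interferon assembles, went from 4.14 to 13.5 CPM at 12 h and from 4.65 to 13.4 at 24 h. *NLRC5*, an activator of class I antigen presentation genes, went from 0.999 to 5.99 CPM and from 1.12 to 5.56. In BT474, *IRF1* lay between 4.15 and 7.8 CPM in all 10 groups, and at T0 it was lower in BT474R (1.86 against 4.76 CPM, log2 fold change -1.36 ± 0.26, adjusted p = 2.92e-05), as were 6 of 9 members. *STAT2* moved the other way in BT474, called lower with both ligands at 12 h and 24 h. At 12 h it had 77.1 CPM in BT474 vehicle, 48.7 with HRG and 53.4 with EGF. *STAT2* was also called lower from T0 to vehicle at 24 h in BT474, and with HRG in BT474R at 12 h.

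**Figure D5:**
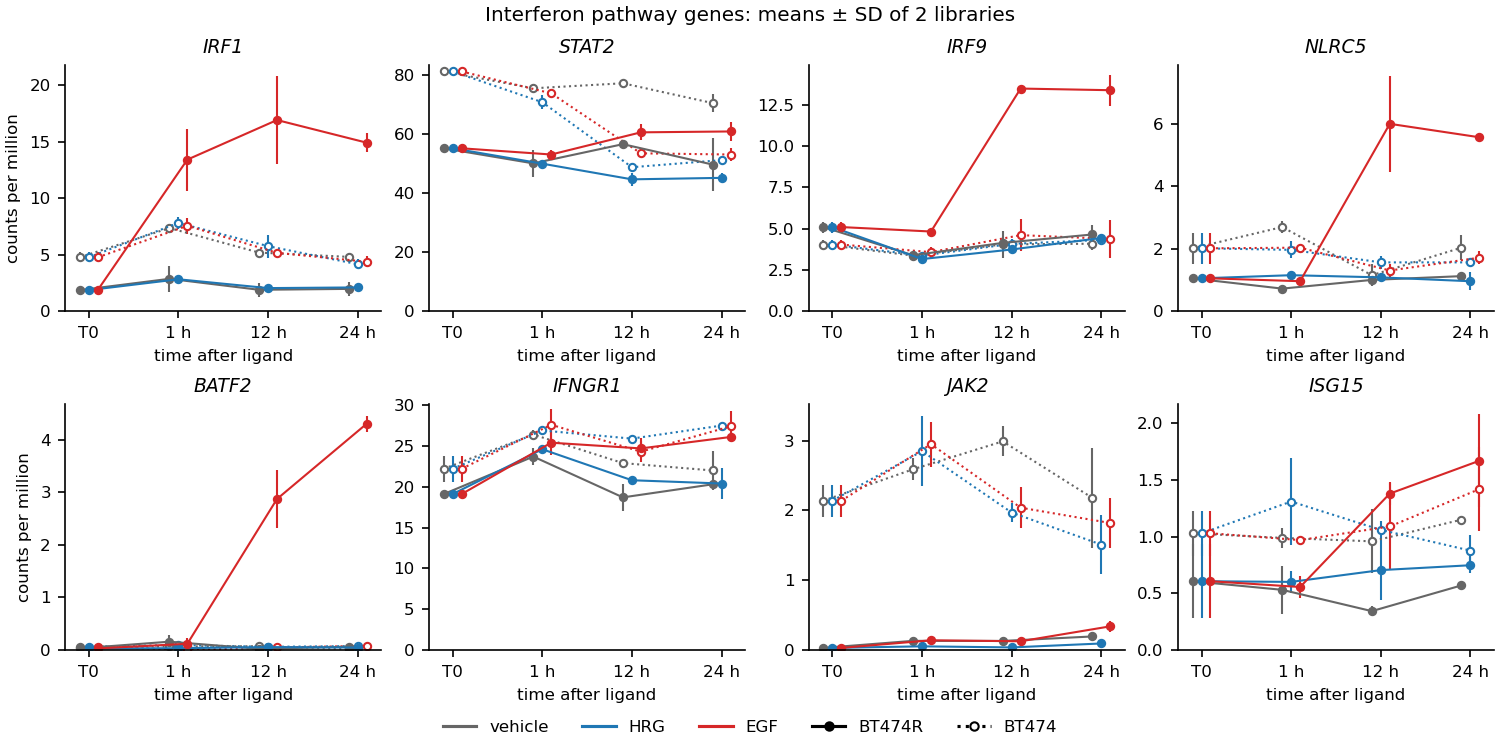
CPM (vertical, linear, mean ± SD of 2 libraries) of 8 interferon pathway genes at T0, after 1 h, 12 h or 24 h (horizontal, evenly spaced categories) by line and ligand. IRF1 in EGF-BT474R is up at 1 h (13.4 CPM), IRF9, NLRC5 and BATF2 from 12 h, and JAK2 lies under 0.4 CPM in every BT474R group.

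Interferon RNA itself was at the limit of detection. Of 10 interferon genes, *IFNG*, *IFNA1*, *IFNA2* and *IFNW1* had 0 counts in all 40 libraries, the others at most 4 in any library, and their sum was 1 to 2 counts in the EGF-BT474R libraries at 24 h. Of 9 receptor and kinase genes, EGF in BT474R raised *IFNGR1* and *IFNGR2* and lowered *JAK1* at 12 h, and raised *IFNGR1* and *IFNAR2* at 24 h, all by less than 0.5 on the log2 scale. Leaving out 1 library ended the calls of *IFNGR1* at 12 h (adjusted p = 0.0559 without vehicle replicate 1), *IFNGR2* (any of the 4, up to 0.347 without EGF replicate 2), *JAK1* (any of the 4, up to 0.42 without vehicle replicate 2) and *IFNAR2* (0.34 without EGF replicate 1 and 0.322 without vehicle replicate 1). Apart from that of *IFNGR2*, these calls had counterparts in BT474. There both ligands raised *IFNAR2* at 12 h and *IFNGR1* at 24 h, and HRG lowered *JAK1* at both times. The EGF effect was called different between the lines for 0 of the 9 genes at 12 h and at 24 h. At T0, 4 of the 9 were called higher in BT474R than in BT474, *JAK1*, *IFNAR1*, *IFNAR2* and *IFNGR2*. The 2 called lower were *IFNGR1* and *JAK2* (21.7% of all genes were lower). The share of all genes called higher is not given, but 6723 of the 24641 tested were higher at an unadjusted p under 0.05. *JAK2*, a kinase of the interferon gamma receptor, had 0.03 CPM in BT474R at T0 against 2.14 in BT474 (adjusted p = 8.77e-11). *JAK1* had 150 CPM in BT474R at T0 against 118 in BT474. Of 6 negative feedback genes *ISG15* rose at both times and *USP18* fell at 24 h, but at 24 h *ISG15* was lost without EGF replicate 1 (0.0583) and *USP18* without EGF replicate 2 (0.121) or vehicle replicate 1 (0.121).

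*CASP4*, the caspase that GBPs activate on lipopolysaccharide, was lower in BT474R at T0 (2.38 against 15.2 CPM, log2 fold change -2.67 ± 0.18, adjusted p = 3.04e-15) and was not called with EGF in BT474R (2.94 CPM in vehicle and 4.39 with EGF at 24 h, adjusted p = 0.109). In BT474 *CASP4* was called lower with EGF, from 13.5 to 10.4 CPM at 12 h (adjusted p = 0.00588) and from 11.2 to 9.17 at 24 h (0.0464), and the EGF effect was called higher in BT474R than in BT474 by 1.05 on the log2 scale at 12 h (0.0128) and by 0.86 at 24 h (0.034). These 4 calls were lost when single libraries were left out, at worst to 0.135 (without EGF-BT474 replicate 1) and 0.29 (without EGF-BT474 replicate 1) in BT474, and to 0.182 and 0.165 (without BT474R vehicle replicate 2) between the lines. Of 12 genes for caspases, gasdermins and their partners, 9 were tested, and EGF in BT474R raised *SFN* and lowered *GSDMB* and *NINJ1* at 12 h, and raised *SFN* and lowered *NINJ1* at 24 h. At 12 h the call of *NINJ1* was lost without EGF replicate 1 (0.0537) and that of *GSDMB* without EGF replicate 1 (0.0727), EGF replicate 2 (0.196) or vehicle replicate 1 (0.226). *SFN* encodes a 14-3-3 protein, a family that can hold GBPs in the cytosol. These calls were not particular to BT474R. In BT474 both ligands also raised *SFN* and lowered *NINJ1* at 12 h and 24 h, and lowered *GSDMB* at 12 h. Of 5 prenylation enzymes, which attach and finish the lipid anchor of GBPs, only *ICMT* was called, higher at 24 h, and not without EGF replicate 1 (0.103) or vehicle replicate 1 (0.122). *ICMT* was also called higher in BT474 with both ligands at 12 h and 24 h, and in HRG-BT474R at 24 h. Of 7 other dynamin-like or immunity-related GTPases tested in EGF-BT474R, *ATL3* fell at 12 h, and *ATL2* rose and *MX2* fell at 24 h. *ATL3* was lost without any 1 of the 4 libraries (0.163 to 0.224), *ATL2* without EGF replicate 1 (0.109) or vehicle replicate 1 (0.114), and *MX2* without EGF replicate 1 (0.0546), EGF replicate 2 (0.159) or vehicle replicate 1 (0.207). *EGFR*, the receptor of the ligand, was higher in BT474R at T0 (679 against 66.5 CPM, log2 fold change 3.35 ± 0.10, adjusted p = 5.44e-26).

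Of the relatives of the members, *APOLD1*, a more distant relative of the APOL genes, was the one clearly detected, with 66 to 772 counts per library. It was lower in BT474R at T0 (4.64 against 20.5 CPM, log2 fold change -2.15 ± 0.11, adjusted p = 5.77e-19), and it was not called with EGF in BT474R at 12 h (adjusted p = 0.0889) or 24 h (0.496). *GBP6* had at most 2 counts in any library, *GBP7* at most 6 and *APOL5* at most 3. *GBP1P1*, a pseudogene of *GBP1*, had 12 and 5 counts in EGF-BT474R at 24 h and none in vehicle, and 0.867% of the stretches of 100 bases in *GBP1* transcripts also occur there. *GBP2* shares 7.21% of such stretches with *GBP7* and *GBP4* 0.0973% with *CASP10*, whereas the other 7 members share none with another gene. Non-coding genes overlap *GBP1* (*LOC105378841*, 2 to 35 counts) and *GBP2* (*LOC112268267*, 13 to 162 counts), and since no strand setting is given in the sources used here, reads of overlapping genes cannot be told apart.

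Genes with the pattern closest to the members were ranked by Pearson correlation, over the 20 group means, with the mean profile of the 9 members that passed the filter over both lines. Of 15310 genes, the 8 closest were *IFIT2* (r = 0.938), *ERAP2* (0.937), *IFI44* (0.934), *TAP1* (0.926), *IFITM1* (0.917), *OAS2* (0.913), *IFIH1* (0.907) and *ETV7* (0.898). The members themselves lay between 0.71 for *APOL4* and 0.936 for *APOL6*, and *GBP5*, which was not used in the profile, had 0.687. These correlations describe 20 groups that share lines and vehicle libraries and are no test. *IFIT2* had 0.38 CPM in BT474R vehicle and 10.7 ± 0.225 with EGF at 24 h, and *ERAP2* 1.95 and 4.54 ± 0.372.

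The cultures were checked for their identity. *ERBB2*, the gene for HER2, lay between 6150 and 10400 CPM in all group means. The 8 epithelial and line markers were detected in every library, but not at equal levels. *GATA3*, a transcription factor of luminal breast cells, was lower in BT474R at T0 (39.7 against 472 CPM, log2 fold change -3.57 ± 0.10, adjusted p = 1.26e-26). With EGF in BT474R it fell from 46.0 to 13.4 CPM at 12 h (-1.78 ± 0.14, adjusted p = 1.32e-08) and from 43.7 to 10.9 at 24 h (adjusted p = 2.53e-09). In BT474 both ligands also lowered *GATA3*, and raised *EPCAM* and the keratins *KRT8* and *KRT18*, at 12 h and 24 h. HRG lowered *GATA3* in BT474R at both times. The EGF effect on *GATA3* was called lower in BT474R than in BT474 at both times, as was that on *CDH1* at 24 h. In EGF-BT474R *KRT8* and *KRT18* were called higher at both times, and *EPCAM* higher and *CDH1* lower at 24 h. Those differences in EGF-BT474R were all less than 0.9 in size on the log2 scale. At 24 h *KRT8* was lost without EGF replicate 2 (0.0837) or vehicle replicate 1 (0.194), *EPCAM* without vehicle replicate 1 (0.0543), and *CDH1* without EGF replicate 2 (0.129) or vehicle replicate 1 (0.0538).

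Of 10 markers of other cell types, *PTPRC*, *CD3E*, *CD14* and *MS4A1*, of white blood cells, and *COL1A2*, of fibroblasts, had at most 4 counts in any library. *LYZ*, a lysozyme of myeloid and other cells, had counts in every library, 33 at most, and lay at 0.36 and 0.536 CPM in BT474R with vehicle and EGF at 12 h and at 0.545 and 0.4 at 24 h, with no call. The summed level of the 10 markers, mostly *COL1A1*, was 289 to 302 CPM in BT474R vehicle and 285 to 312 with EGF at 24 h, and 193 to 204 and 212 to 214 at 12 h. Within that list *CD68*, a lysosomal protein of macrophages and other cells, was called higher with EGF, from 1.78 to 3.03 CPM at 12 h and from 1.87 to 4.79 at 24 h, as were *VWF* at 12 h and *PECAM1*, with at most 5 counts, at 24 h. Of these calls, that of *CD68* at 24 h held with each library left out, while at 12 h it was lost without any 1 of the 4 (0.0965 to 0.163), *VWF* without EGF replicate 2 (0.495) or either vehicle replicate (0.144 and 0.153), and *PECAM1* without EGF replicate 1 (0.142) or either vehicle replicate (0.177 and 0.0963). The part of these marker genes in the levels of the members was not tested. Replicates are known by number only, so the spread between the libraries of a group may be technical. Each p-value rests on that spread pooled over all groups of its fit. The spread was uneven between groups. The median chi-square between replicate counts was 2.56 in BT474R with HRG at 24 h and 0.595 to 1.58 elsewhere.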

How the data were processed

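RNA of BT474 and BT474R was sequenced as 40 libraries in 20 groups of 2. The authors trimmed paired reads with Trim Galore 0.6.6 after FastQC 0.11.8, and aligned them to GRCh38.p13 and assigned them to genes with Rsubread 2.6.4 (featureCounts). They deposited raw counts per gene, neither normalized nor filtered. The annotation release, strand setting and treatment of multi-mapped reads are not given in the sources used here. All 40 columns were used.

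Members and gene lists were chosen with earlier results of these data known. All 10 members are named, and of each list up to 3 called genes with the highest mean CPM, plus *IRF1*, *CASP4*, *GBP6*, *GBP7* and *APOL5*; other genes, such as *NLRC5*, *BATF2*, *JAK2* and *EGFR*, were named after their values were seen. Genes with at least 1 count in 50% of the libraries of a fit were tested (25146 in BT474, 24287 in BT474R, 24641 over both lines) with edgeR 4.0.16 (TMM, quasi-likelihood F test, R 4.3.3), each line in 1 fit of 20 libraries. The T0 comparison of the lines and the effects between lines came from 1 fit of 40. Genes were called at a Benjamini-Hochberg adjusted p under 0.05 over all genes tested. Lengths are unions of exons in GENCODE, and promoters and neighbours come from RefSeq tables. The pipeline was tested on simulated data. The alternatives were DESeq2 1.42.0, its size factors in edgeR, filterByExpr, no filter, fewer libraries, a replicate block, 1 fit of both lines, summed copy rows, CPM of the plain total, a prior count of 0.5 and leaving out each library. RPPA and ATACseq were not analysed here, and 1 gene of the transcription factor list is not reported here.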

Additional observations from a re-analysis of the deposited data

How the results depend on the processing

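The number of members called moved by over 1.5 times in 41 recalculations and by less in 247, and for single genes 770 values kept their side of the threshold, 134 lost their call and 1 level moved, while none turned its direction. In BT474R with EGF, 5 members were called at 12 h and at 24 h, and 8 at each time with no filter on low counts. With only the libraries of the groups compared, 8 were called at 12 h in BT474R with EGF, and 0 in place of 6 between EGF and HRG in BT474R at 24 h. That setting also gave 0 members in place of 1 for EGF-BT474 at 1 h and 24 h and for HRG-BT474R at 12 h. With both lines in 1 fit, the count was 0 in place of 2 and 1 for EGF-BT474 at 12 h and 24 h, 2 in place of 4 for HRG-BT474 at 12 h, and 2 in place of 1 for vehicle at 24 h against T0 in BT474R, which was also 2 with no filter. DESeq2 gave 1 in place of 2 for EGF-BT474 at 12 h, HRG-BT474 at 1 h (it gave *APOL4* in the first and *GBP1* in the second no adjusted p) and HRG-BT474 at 24 h, and 0 in place of 1 for EGF-BT474 at 24 h, as did summed copy rows. Where the cause of a lost call is not in the construction of the setting, it was not tested.

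Same-numbered replicates share only a number: their deviations correlated between -0.0247 and 0.147. With a replicate block, 2 members in place of 1 were called for EGF-BT474 at 24 h and 4 in place of 2 for HRG-BT474 at 24 h, and no other count moved by over 1.5 times.

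Leaving out 1 library at a time gave 4 to 5 members for BT474R against BT474 at T0, and 0 to 1 for EGF-BT474 at 1 h, at 12 h and at 24 h. For HRG-BT474 it gave 1 to 2 at 1 h, 1 to 3 at 12 h and 1 to 3 at 24 h. For HRG-BT474R it gave 0 at 1 h, 0 at 12 h and 0 to 1 at 24 h. For vehicle at 24 h against T0 it gave 1 in BT474 and 0 to 2 in BT474R. For EGF-BT474R it gave 5 at 12 h and 5 to 6 at 24 h, for EGF against HRG in BT474R 4 to 5 at 12 h and 5 to 6 at 24 h, and for the EGF effect between lines 4 to 5 and 5 to 6. With 1 library left in a group, that library is assumed to vary like the other groups. In fits of 40 libraries the dispersion trend of the full fit was kept.

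With CPM of the plain library total, 17 of 200 group levels of the members moved by over 1 SD, by factors of 0.931 to 1.08, and *APOL2* in EGF-BT474R at 24 h was 35.6 instead of 38.0 CPM. With a prior count of 0.5, 7 of the 8 closest genes were the same. Depth limits *APOL3*, *APOL4* and the members at the floor, where only bounds or wide counting intervals can be given.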
